A study of Mus musculus with 5 samples.

Results

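Sox10, Olig2, Sox3 and Foxd3 encode transcription factors that mark the embryonic neural tube and neural crest, and their levels were followed through 5 mouse embryonic libraries. They were taken by exact gene name and make up 4 of the 12375 named loci of the deposited expression table. The study profiled poly(A) RNA of hepatic and pancreatic progenitor tissue from C57BL/6J embryos, with 1 library per tissue. Liver, ventral pancreas and dorsal pancreas were taken at stage E10.5, counted in days of embryonic development, and foregut and medial foregut at E8.5. No treatment or altered allele is named in the labels, and no source used here says how tissue was isolated or whether embryos were pooled. Values are FPKM, which scale fragment counts by transcript length and library size. Where a locus departs from the annotated gene, as that of Sox3 does at 917% of its span, levels compare between genes only roughly. Hnf4a, a hepatic factor, stood at 158 FPKM in liver, and Pdx1, the pancreatic factor, at 39.2 and 40.9 FPKM in ventral and dorsal pancreas against 0.0313 FPKM in liver, both chosen after their values were seen. With 1 library per tissue there is no replicate error, no test was run, and every difference describes these libraries alone.

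The neural tube is the epithelial precursor of brain and spinal cord, and the neural crest leaves its dorsal edge to form peripheral neurons, glia, pigment cells and, in the gut, the enteric nervous system. Sox3 is a SoxB1 factor of neural progenitors. Olig2 is a basic helix-loop-helix factor of ventral neural tube progenitors that give motor neurons and oligodendrocytes. Foxd3 is a forkhead factor of premigratory neural crest, and Sox10 is a SoxE factor that is kept on in migrating crest and its glia.

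All 4 genes stood highest in the foregut library. Sox10, Olig2 and Foxd3 were each 8 or more times as high in foregut as in medial foregut, whereas Sox3 was 1.86 times as high. In the E10.5 libraries Sox10 and Olig2 lay under 1 FPKM, Sox3 was at several FPKM in both pancreatic libraries but not in liver, and Foxd3 reached 2.06 FPKM in dorsal pancreas but stayed under 1 FPKM in liver and ventral pancreas.

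**Figure D1:**
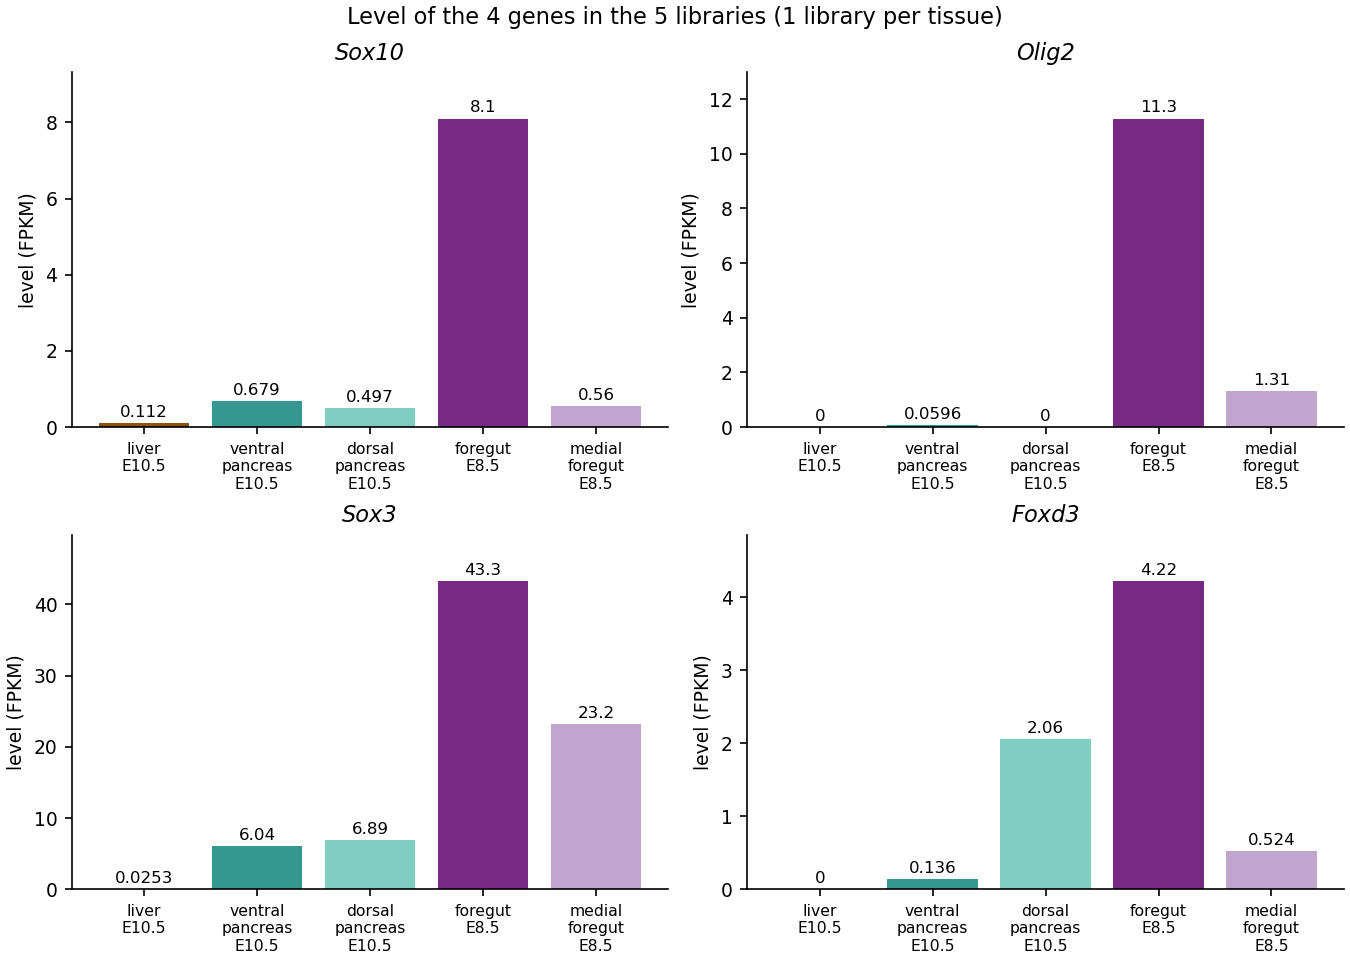
Level in FPKM (vertical axes, linear, each gene with its own scale) of Sox10, Olig2, Sox3 and Foxd3 in the 5 libraries, 1 bar per library with its value printed above. The foregut bar is the highest in each panel, at 8.10, 11.3, 43.3 and 4.22 FPKM.

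Close relatives of these genes could share reads with them, so the longest run of identical bases between coding sequences was read from GENCODE M21 (GRCm38) transcripts for each gene and its relatives. The runs shown are those of the relative that matched longest.
Sox3 and Sox1: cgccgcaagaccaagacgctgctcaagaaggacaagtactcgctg
Sox10 and Sox9: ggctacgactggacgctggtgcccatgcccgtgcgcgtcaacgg
Olig2 and Olig3: tcggtgcgcaagctctccaagatcgccac
Foxd3 and Foxd4: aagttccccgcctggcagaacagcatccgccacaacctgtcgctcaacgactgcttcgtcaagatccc

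These runs were 45, 44, 29 and 68 bases long, in coding sequences of 1350 bases (Sox3), 1398 bases (Sox10), 969 bases (Olig2) and 1407 bases (Foxd3). Each was shorter than a read of 100 bases, the length the labels' protocols give. Sox3 also shared a run of 32 bases with Sox2 and of 16 bases with Sox10. Identity over a whole read is therefore not reached within coding sequence by any of the 10 pairs compared, and untranslated parts were not compared. Exact runs do not cover reads placed with mismatches, so sharing of reads was not tested.

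The loci differ in how well they fit the annotated genes. In mm9 coordinates, as the table gives them, Sox10 lay at chr15:78985337-78994913 on the minus strand, a length equal to 92.7% of the annotated span of 10333 bp. Olig2 lay at chr16:91225566-91228924 on the plus strand, over 3359 bp against 3221 bp annotated. Sox3, a gene of a single exon with 2065 bp annotated, lay in a locus of 18940 bp at chrX:58144540-58163479 on the minus strand. In GRCm38 the antisense transcript Gm14662 lies 223 bp from Sox3, a gap shorter than the excess length of this locus. Foxd3 lay at chr4:99320323-99325364 on the minus strand, whereas the annotated gene is on the plus strand. That locus spans 5042 bp against 2324 bp for the gene, and the stretch from the minus-strand lincRNA Gm12688 through Foxd3 spans 5016 bp in GRCm38. The protocols describe no strand marking, so for Sox3 and Foxd3 the reads of the gene and of such a neighbour cannot be told apart. No other locus of the table overlapped any of the 4.

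RefSeq (GRCm38.p6) gives a window of 250 bases before the start for 2 of the 4 genes, Olig2 and Foxd3. Only these are shown because no window was given for Sox10 or Sox3, while all 4 genes were higher in foregut than in medial foregut. The windows were searched on both strands for the Sox core ACAAT, the E-box CANNTG bound by helix-loop-helix factors such as Olig2, and the forkhead core TAAACA, and capitals mark a match.
Olig2, chr16:91225300-91225456, plus strand, the part before the earliest annotated start: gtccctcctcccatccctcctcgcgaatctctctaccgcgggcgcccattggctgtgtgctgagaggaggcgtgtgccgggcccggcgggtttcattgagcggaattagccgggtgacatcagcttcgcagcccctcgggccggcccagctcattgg
Olig2, chr16:91225473-91225497, plus strand, the Sox core further along the window, read on the other strand: ggaaaagcacATTGTtcccgccccc
Foxd3, chr4:99656049-99656298, plus strand: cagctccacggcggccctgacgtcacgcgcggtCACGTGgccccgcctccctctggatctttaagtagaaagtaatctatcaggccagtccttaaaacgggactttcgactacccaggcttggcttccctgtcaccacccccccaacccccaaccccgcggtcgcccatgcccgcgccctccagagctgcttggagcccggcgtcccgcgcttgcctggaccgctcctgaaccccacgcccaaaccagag

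The Olig2 window held the Sox core at 1 place, 67 bases before the RefSeq start, and neither of the other motifs. That place lies past the earliest annotated start, within the gene as GENCODE gives it. The Foxd3 window held the E-box at 1 place and neither of the others. Of 32851 promoter windows, 27.7% held the Sox core, 66.2% the E-box and 12.0% the forkhead core. A match is a description of the letters and not a site of binding.

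The first comparison set foregut against medial foregut at E8.5. A locus was counted as higher or lower when log2(FPKM + 1) differed by at least 2, or 4 times in FPKM + 1, with at least 5 FPKM in the library where it was higher. This scale understates the change of low genes. Of the 12375 named loci 5 were higher in foregut (0.0404%), and 2 of those 5 were Sox10 and Olig2. With a pseudocount of 5 FPKM in place of 1, their differences were 1.24 and 1.37 and no locus was counted as higher. The genes were proposed with results of these data known, so this share is a description. The other 3 loci, named after their values were seen, were Uckl1, Nr1h5 and Vit, and the Uckl1 locus has no strand. The only locus counted as lower (0.00808%) was Aldoart2, a locus of 104 bp at 244 FPKM in foregut and 13930 FPKM in medial foregut.

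Sox10, which maintains migrating neural crest and its glia, stood at 8.10 FPKM in foregut and 0.560 FPKM in medial foregut, 14.5 times as high. Its difference of 2.54 was the most positive of all 12375 named loci. The medial foregut level lay within the range of the E10.5 libraries, at 0.112 FPKM in liver, 0.679 FPKM in ventral pancreas and 0.497 FPKM in dorsal pancreas. Foregut alone was high, holding 81.4% of the summed FPKM of Sox10 over the 5 libraries. In foregut 46.5% of named loci stood lower than Sox10, against 8.22% in medial foregut.

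Olig2, the factor of motor neuron and oligodendrocyte progenitors, stood at 11.3 FPKM in foregut and 1.31 FPKM in medial foregut, 8.62 times as high. Its difference of 2.41 ranked 3 of 12375. At E10.5 it was listed at 0 in liver and in dorsal pancreas and stood at 0.0596 FPKM in ventral pancreas. Its signal was thus almost wholly at E8.5, with 89.2% of the summed FPKM in foregut and 10.3% in medial foregut.

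Foxd3, the factor of premigratory crest, stood at 4.22 FPKM in foregut and 0.524 FPKM in medial foregut, 8.07 times as high. Its difference of 1.78 ranked 10 of 12375, and no library reached the 5 FPKM needed for a count. With every library rescaled to a sum of 1000000 its difference was 2.33 and it was counted. Under a looser rule, a difference of at least 1 with the higher library at 1 FPKM or more, 82 loci were higher in foregut (0.663%) and 47 lower (0.38%). Foxd3, Sox10 and Olig2 were among the 82, and Sox3 was in neither group.

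Sox3, the neural progenitor factor, stood at 43.3 FPKM in foregut and 23.2 FPKM in medial foregut. Its difference of 0.87 ranked 143 of 12375 and fell short of both rules. In level it was the highest of the 4 genes in both E8.5 libraries, above 86.6% of named loci in foregut and 73.7% in medial foregut. The genes thus differed among themselves: medial foregut held 29.2% of the summed FPKM of Sox3, but 5.63% for Sox10, 10.3% for Olig2 and 7.54% for Foxd3.

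**Figure D2:**
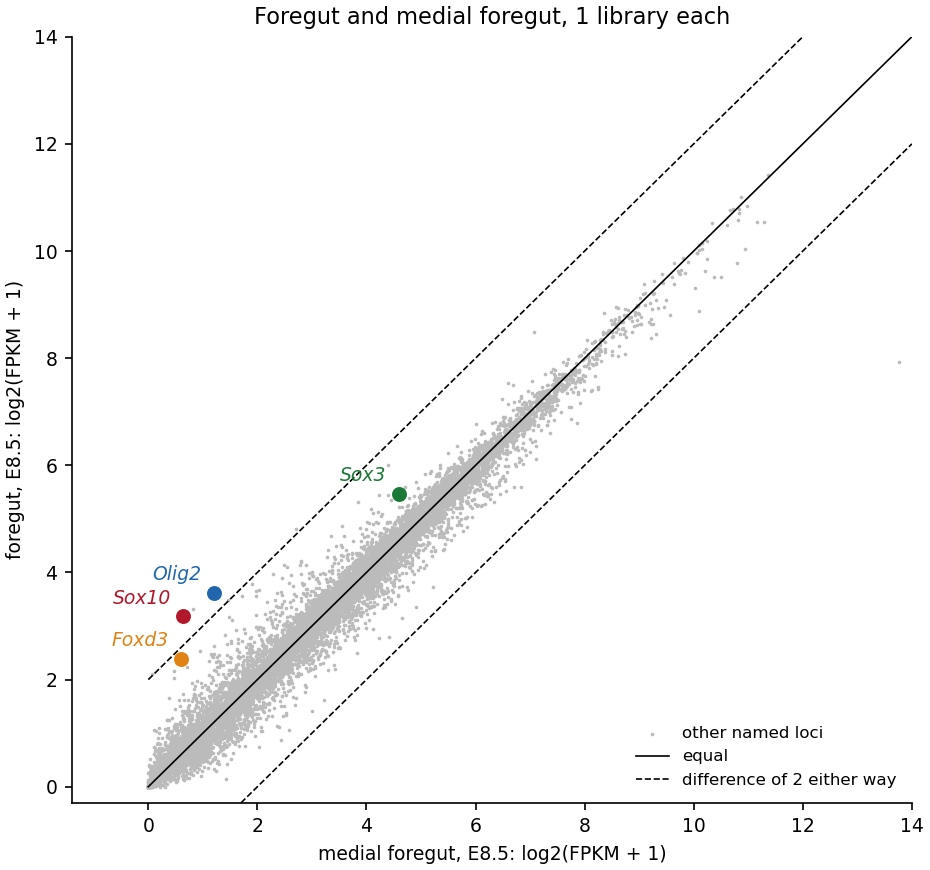
Level of each of the 12375 named loci in foregut (vertical axis) and medial foregut (horizontal axis), both as log2(FPKM + 1) with 1 library each. Sox10 and Olig2 lie above the upper dashed line, which marks a difference of 2, Foxd3 lies just under it at 1.78, and Sox3 lies nearer the line of equal levels at 0.87.

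Other genes of the same cell types were described from lists chosen with earlier results of these data known. Of 30 neural crest genes listed 26 were found. By the size rule Sox10 was higher in foregut, none was lower and 25 were neither. By the looser rule 8 were higher, Sox10 and Foxd3 among them, 0 lower and 18 neither. The list's median difference was 0.54, and 0.51 for the 24 genes other than Sox10 and Foxd3, beside 0.00 for all named loci. Ednrb, the endothelin receptor of migrating crest, stood at 14.7 FPKM in foregut and 3.87 FPKM in medial foregut. Unlike Sox10 and Foxd3, it was also high in liver, at 14.2 FPKM, against 2.36 FPKM in ventral and 1.10 FPKM in dorsal pancreas. Pax3, a factor of dorsal neural tube and crest, stood at 11.8 FPKM in foregut and 3.11 FPKM in medial foregut. Tcfap2b, whose profile was among the nearest to Sox10, stood at 3.73 FPKM in foregut against 0.627 FPKM in medial foregut. Of the 26 genes 22 had differences above 0, or 20 of the 24 without Sox10 and Foxd3, and 4 below. Those 4, named after their values were seen, were Twist1, at 11.6 FPKM in foregut and 19.0 FPKM in medial foregut, Snai2, at 3.67 FPKM in foregut and 6.83 FPKM in medial foregut, Mitf and Itga4. The 3 genes of the list with the highest mean levels lay on both sides of its median. The adhesion gene Cdh6, at 37.0 FPKM in foregut and 29.7 FPKM in medial foregut, differed less. So did the helix-loop-helix inhibitor Id3, at 48.0 FPKM in foregut and 41.8 FPKM in medial foregut. Sox9, at 9.17 FPKM in foregut and 4.21 FPKM in medial foregut, differed more, by 0.96.

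Of 34 neural tube progenitor genes 15 were found, and their median difference was 0.87, or 0.79 for the 13 other than Olig2 and Sox3. By the size rule 1 was higher (Olig2), 0 lower and 14 neither. By the looser rule 4 were higher, Olig2 among them, 1 lower and 10 neither. Nkx6-1, a homeobox factor of ventral neural tube and of pancreas, stood at 7.98 FPKM in foregut and 1.78 FPKM in medial foregut. Pax6, a paired-box factor of neural tube and endocrine cells, stood at 42.6 FPKM in foregut and 20.0 FPKM in medial foregut at a locus of 938% of the annotated span. The RNA-binding gene Msi1 stood at 73.9 FPKM in foregut and 44.1 FPKM in medial foregut. Otx2, a forebrain and midbrain factor, went the other way, at 1.09 FPKM in foregut and 5.00 FPKM in medial foregut.

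Markers of further cell types were read in the same pair of libraries. By the size rule none was counted as higher or lower in any of the lists that follow. In bulk tissue, fewer cells of a type and less RNA per cell cannot be told apart. The 19 foregut endoderm genes found of 20 had a median difference of -0.03, with 9 above 0 and 10 below, 1 higher and 1 lower by the looser rule, and summed to 470 FPKM in foregut and 557 FPKM in medial foregut. Among them Epcam, an epithelial adhesion gene, stood at 45.6 FPKM in foregut and 46.5 FPKM in medial foregut, and Cldn6, a tight junction gene, at 99.1 FPKM and 103 FPKM in the same order. The 16 mesoderm genes found of 20 had a median of -0.75, with 14 below 0 and 4 lower by the looser rule, and summed to 3615 FPKM in foregut and 6379 FPKM in medial foregut. The cardiac sarcomere genes Actc1, Myl7 and Tnnt2 made up most of both mesoderm sums. They stood at 1487, 1049 and 875 FPKM in foregut and 2297, 1959 and 1764 FPKM in medial foregut. The heart factor Hand1 stood at 12.2 FPKM in foregut and 36.5 FPKM in medial foregut. None of the found endoderm or mesoderm genes was listed at 0 in either library. Genes of notochord and floor plate, 7 found of 13, had a median of 0.42. They summed to 65.6 FPKM in foregut and 44.9 FPKM in medial foregut, with the netrin gene Ntn1 at 13.8 and 4.46 FPKM. The lists overlap. Foxa1, Foxa2 and Shh, at 20.2, 18.2 and 10.2 FPKM in foregut, are in both this list and the endoderm list. In medial foregut they stood at 18.6, 12.4 and 7.35 FPKM. Sox2, the endoderm gene higher by the looser rule, is also a neural tube list gene. Surface ectoderm and placode genes, 8 found of 13, had a median of -0.41 and neuron genes, 12 found of 24, one of 0.28. The part of these other cell types in the levels of the 4 genes was not tested.

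**Figure D3:**
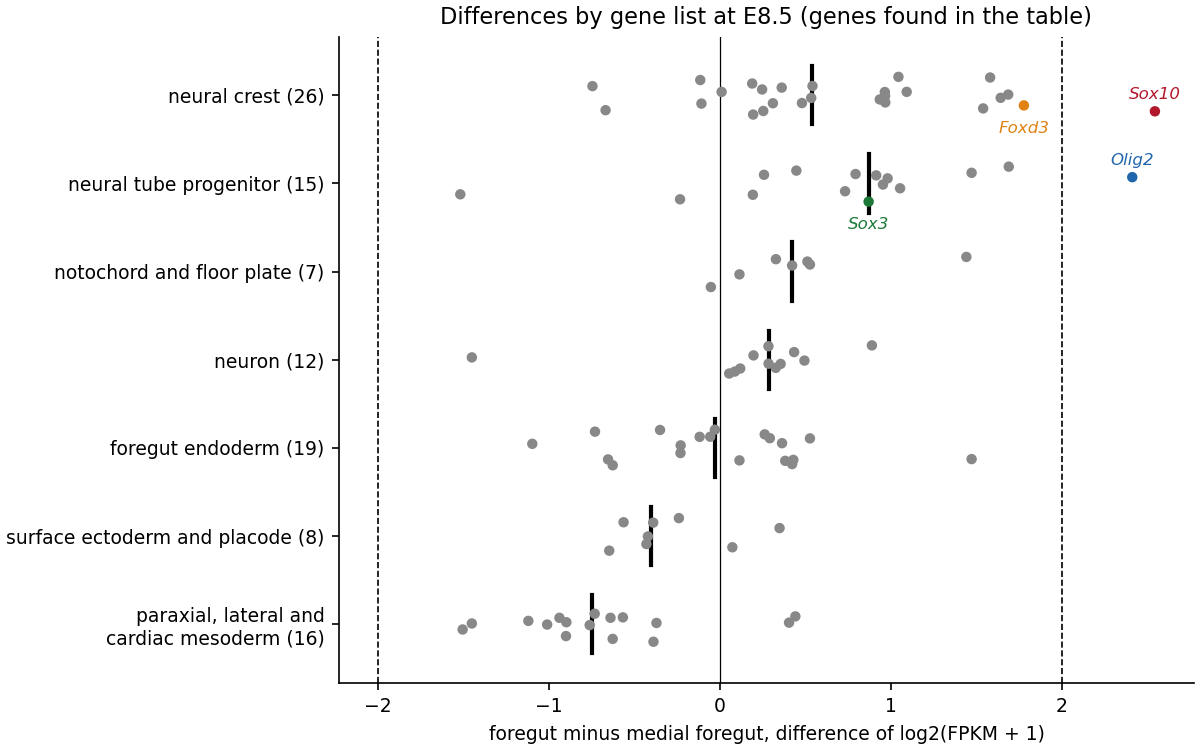
Difference of log2(FPKM + 1), foregut minus medial foregut (horizontal axis), for each found gene of 7 gene lists (rows, number found in parentheses). Grey points are genes, coloured points the 4 genes, thick bars list medians and dashed lines a difference of 2; the neural crest and neural tube medians lie at 0.54 and 0.87, the mesoderm median at -0.75.

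Relatives within each family were set beside the 4 genes. All other SoxB members found, Sox1, Sox2 and Sox21, were above medial foregut in foregut as Sox3 was, at 14.6, 38.9 and 5.97 FPKM in foregut against 7.04, 13.4 and 2.70 FPKM in medial foregut. The Sox2 locus spans 117822 bp, as does that of the long noncoding Sox2ot, so reads of that pair may be split between them. At E10.5 Sox3 was set apart from the other SoxB genes by its pancreatic level, at 6.04 FPKM in ventral and 6.89 FPKM in dorsal pancreas, where Sox1, Sox2 and Sox21 lay between 0.0754 and 1.19 FPKM. The Sox3 and Sox21 loci span 917% and 732% of the annotated lengths, and reads of Sox3 and of a neighbour cannot be told apart.

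Among SoxE genes the levels ran differently. Sox9, which marks crest and pancreatic progenitors, stood at 2.32 FPKM in liver, 37.0 FPKM in ventral pancreas and 25.3 FPKM in dorsal pancreas, and at 9.17 FPKM in foregut and 4.21 FPKM in medial foregut. Sox8 was highest in dorsal pancreas at 3.25 FPKM and stood at 0.551 FPKM in foregut and 0.361 FPKM in medial foregut. Sox10 was the SoxE gene with the largest difference between foregut and medial foregut. Of the remaining Sox genes found, Sox4, Sox5, Sox6, Sox12, Sox13 and Sox17 had differences between -0.23 and 0.49, and the strand of the Sox4 locus is opposite to that annotated. Several of these loci are longer than annotated, Sox9 at 2236% of the span, Sox17 at 533%, Sox12 at 308%, Sox4 at 259% and Sox8 at 250%.

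Olig3, a factor of dorsal neural tube progenitors, followed Olig2 at a lower level, with 3.94 FPKM in foregut and 0.441 FPKM in medial foregut. Foxd1 stood at 4.01 FPKM in foregut and 1.81 FPKM in medial foregut, and unlike Foxd3 it was at 0.0941 FPKM in dorsal pancreas. Of 17 Sox genes listed 13 were found, and of 9 Foxd and Olig family genes 4.

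**Figure D4:**
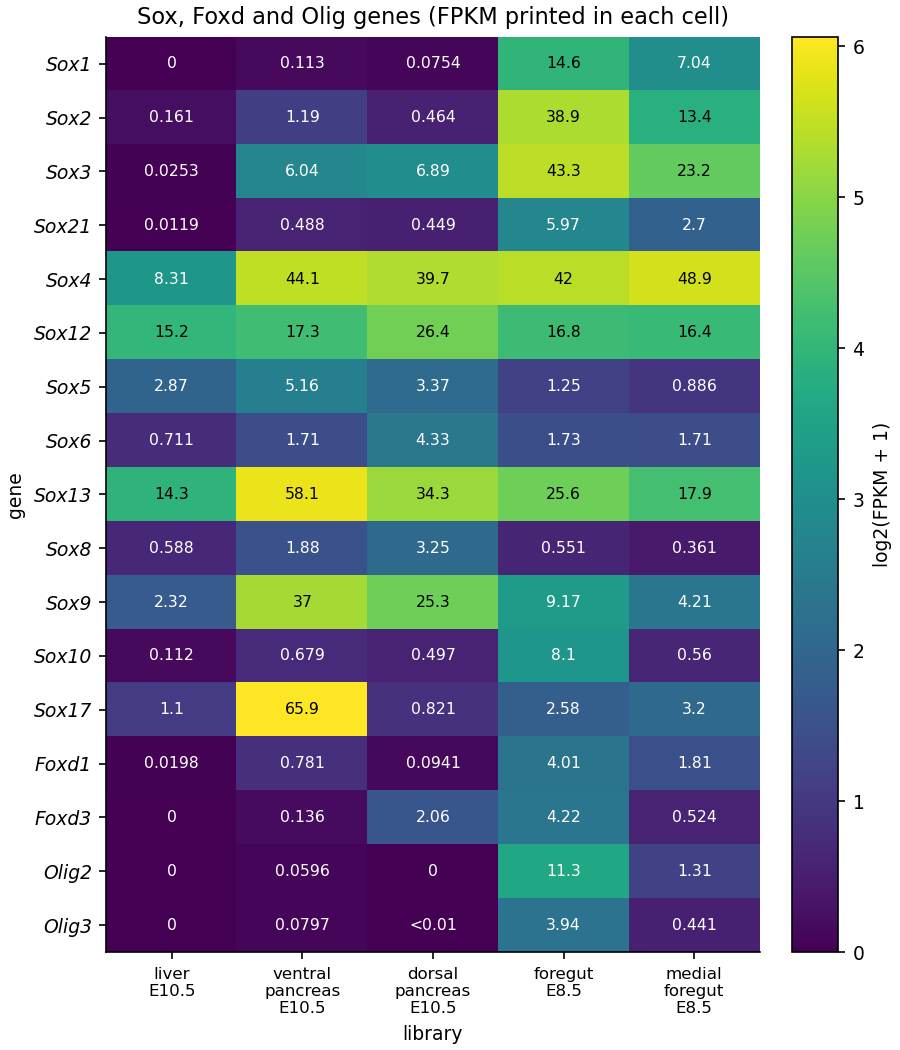
Level of 17 Sox, Foxd and Olig genes (rows) in the 5 libraries (columns), with colour as log2(FPKM + 1) and the FPKM printed in each cell. Sox1, Sox2, Sox3, Sox21, Foxd1, Foxd3, Olig2, Olig3 and Sox10 are highest in the foregut column, and Sox5, Sox9, Sox13 and Sox17 in the ventral pancreas column.

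The E10.5 organ buds were next set against the E8.5 libraries. These comparisons reuse the same foregut or medial foregut library and are not independent, so each pair's differences are given side by side. Against foregut, Sox10, Olig2 and Sox3 were lower in all 3 buds by the size rule. Each of these counts is 3 of the 4 genes. Foxd3 had differences against foregut of -2.39 in liver and -2.20 in ventral pancreas and was left out by the 5 FPKM minimum alone. Rescaled to a sum of 1000000, it was counted in both, at -3.36 and -2.99, which makes 4 of 4. With that rescaling 578 of the 12375 named loci were lower in liver than in foregut and 365 higher. For ventral pancreas 340 were lower and 428 higher. Without rescaling, 2.89% of named loci were lower in liver than in foregut and 2.49% higher. The shares were 1.9% lower and 2.29% higher for ventral pancreas, and 1.41% lower and 1.71% higher for dorsal pancreas. With a pseudocount of 5 FPKM the counts of Sox10 and Olig2 ended in all 3 buds and those of Sox3 did not. Against medial foregut, 1 of the 4 genes was counted in liver, Sox3 as lower, where 3.02% of named loci were lower and 2.51% higher. None of the 4 was counted in ventral pancreas (2.26% lower and 2.4% higher) or dorsal pancreas (1.86% lower and 1.78% higher).

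Sox3 gave the most negative differences in liver. At 0.0253 FPKM in liver against 43.3 FPKM in foregut, its difference of -5.43 ranked 5 from the most negative of 12375, and against medial foregut its difference was -4.56. In ventral pancreas the differences were -2.65 against foregut and -1.78 against medial foregut, and in dorsal pancreas -2.49 and -1.62. Sox3 was thus lower in every bud than in either E8.5 library.

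For Sox10 the outcome turned on which E8.5 library was used. Its differences against foregut were -3.03 for liver, -2.44 for ventral pancreas and -2.60 for dorsal pancreas. Against medial foregut they were -0.49, 0.11 and -0.06 in the same order of buds, on levels that were all under 1 FPKM. Olig2 had differences against foregut of -3.62 for liver, -3.54 for ventral pancreas and -3.62 for dorsal pancreas. Against medial foregut, where it stood at 1.31 FPKM, its differences were -1.21, -1.12 and -1.21.

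Foxd3 behaved otherwise in dorsal pancreas, though at its locus reads of the gene and of the lincRNA Gm12688 cannot be told apart. In that library Foxd3 stood at 2.06 FPKM, against 4.22 FPKM in foregut and 0.524 FPKM in medial foregut, with differences of -0.77 and 1.01. In liver it was listed at 0 and in ventral pancreas it stood at 0.136 FPKM. Dorsal pancreas thus lay between the E8.5 libraries for Foxd3, and below both for Olig2 and Sox3. For Sox10 it lay close to medial foregut, with a difference of -0.06 that was 0.02 when each library was rescaled to a sum of 1000000. Neuron genes, 12 found of 24, summed to 236 FPKM in dorsal pancreas, 89.4 FPKM in ventral pancreas and 22.5 FPKM in liver, and to 47.5 FPKM in foregut. In medial foregut they summed to 48.4 FPKM. That list holds 3 genes, picked out after their values were seen, that are also factors of pancreatic cells, Isl1 at 104 FPKM, Neurod1 at 19.3 FPKM and Mnx1 at 19.1 FPKM in dorsal pancreas. The 26 crest genes summed to 128 FPKM in dorsal pancreas, 122 FPKM in ventral pancreas and 63.6 FPKM in liver. A few genes, picked out after their values were seen, hold much of these pancreatic sums. Sox9, also a marker of pancreatic progenitors, stood at 37.0 FPKM in ventral and 25.3 FPKM in dorsal pancreas. Cdh6 stood at 25.3 and 3.55 FPKM and Id3 at 20.5 and 30.0 FPKM in the same order. The part of neurons or crest cells in the Foxd3 level was not tested.

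**Figure D5:**
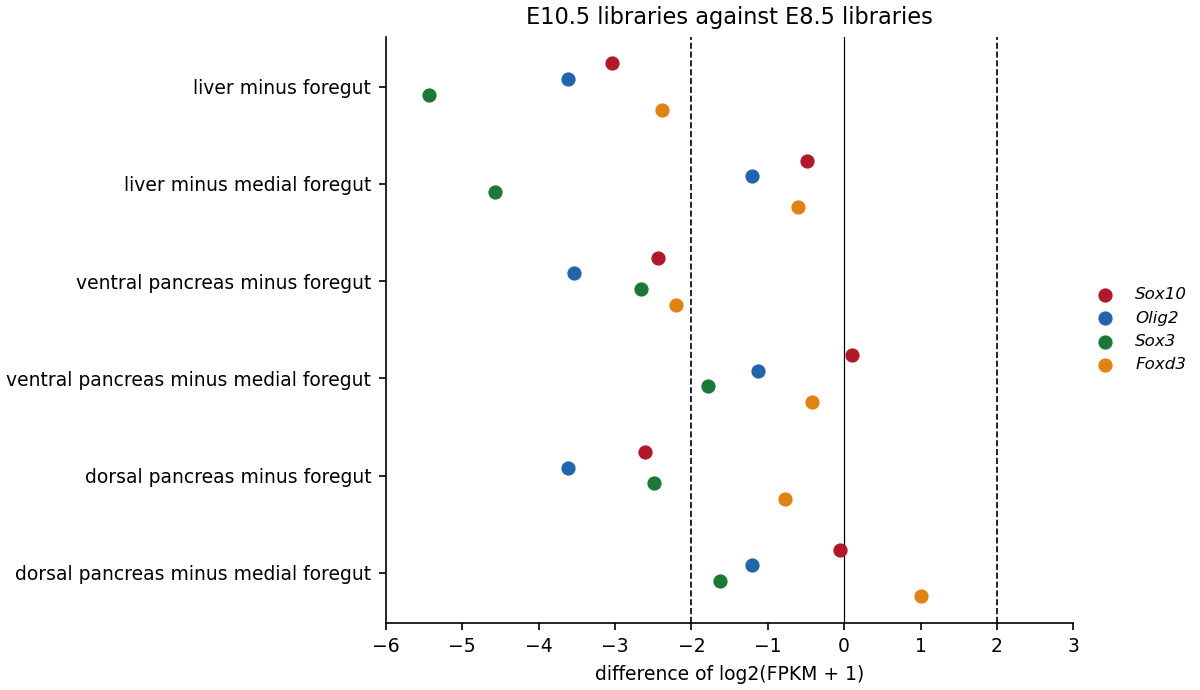
Difference of log2(FPKM + 1) (horizontal axis) for Sox10, Olig2, Sox3 and Foxd3 in each E10.5 library minus each E8.5 library (rows), with dashed lines at a difference of 2 either way. Against foregut every point lies below 0, and against medial foregut Foxd3 in dorsal pancreas reaches 1.01.

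The 2 neural lists were also set against each E8.5 library. Of the 15 neural tube genes found, liver had 9 lower than foregut and 0 higher, ventral pancreas 8 lower and 1 higher, and dorsal pancreas 6 lower and 0 higher. The list's median differences were -2.78, -2.23 and -1.56 in the same order, or -2.21, -2.17 and -1.12 without Olig2 and Sox3, where all named loci had medians of -0.09, 0.11 and 0.09. Of the 26 crest genes, liver had 5 lower and 0 higher, ventral pancreas 6 lower and 0 higher, and dorsal pancreas 6 lower and 1 higher. Their medians were -1.34, -0.92 and -0.81, or -0.87, -0.82 and -0.80 without Sox10 and Foxd3, and most of them were not counted in any bud. Against medial foregut the neural tube medians were -1.87 for liver, -1.53 for ventral pancreas and -1.21 for dorsal pancreas, with 6, 4 and 4 genes lower and 1 higher in each. The crest medians there were -0.70, -0.32 and -0.26 in the same order. Liver had 2 crest genes lower and 0 higher, ventral pancreas 2 lower and 1 higher, and dorsal pancreas 2 lower and 2 higher, with 12 of the 26 above 0 and 14 below.

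Between the buds, Sox3 separated liver from both pancreatic libraries. It stood at 0.0253 FPKM in liver, against 6.04 FPKM in ventral pancreas and 6.89 FPKM in dorsal pancreas, with differences of -2.78 and -2.94. By the size rule it alone of the 4 was counted, where 2.76% of named loci were lower and 1.24% higher in liver than in ventral pancreas, and 3.35% lower and 2.12% higher than in dorsal pancreas. Both counts ended with a pseudocount of 5 FPKM. Ventral pancreas minus dorsal pancreas counted none of the 4, where 0.913% of named loci were higher and 0.768% lower. Foxd3 had the widest contrast, at 0.136 FPKM in ventral pancreas and 2.06 FPKM in dorsal pancreas, a difference of -1.43 that ranked 223 from the most negative of 12375.

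Neighbouring levels in each gene's order cannot be separated without replicates. From high to low, Sox10 ran foregut, ventral pancreas, medial foregut, dorsal pancreas and liver, and the last 4 span only 0.112 to 0.679 FPKM. Olig2 ran foregut, medial foregut and ventral pancreas, with liver and dorsal pancreas listed at 0. Sox3 ran foregut, medial foregut, dorsal pancreas, ventral pancreas and liver, and Foxd3 foregut, dorsal pancreas, medial foregut, ventral pancreas and liver.

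Loci with the most similar profile were sought by the share of a locus's summed FPKM that each of the 5 libraries holds. The distance is the summed absolute difference of shares divided by 2, with 0 for equal shares and 1 for no library in common, over 11245 loci of a single name that reach 1 FPKM. Olig2 was nearest to Olig3 at 0.0141, then to Msx3 (0.0721), Tcfap2b (0.0756), Scube2 (0.0953) and Sox2ot (0.106). Sox10 had among its 5 nearest Pou3f3 (0.0704, its locus 13.3% of the annotated length), Tcfap2b (0.0830), Olig3 (0.111) and Scube2 (0.112). Sox10 and Olig2 shared Tcfap2b, Olig3 and Scube2 among their 5, and their distance from each other was 0.125.

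Sox3 was nearest to Cabp7 (0.0499), Nrcam (0.0538), Lfng (0.0544), 9130206I24Rik (0.0579) and Gbx2 (0.0682). Nrcam, a neural cell adhesion gene, stood at 18.5 FPKM in foregut and 8.70 FPKM in medial foregut. Foxd3 was nearest to Nell2 (0.0838), C130026L21Rik (0.0892), Slit1 (0.110), Dcc (0.128) and Avpr1b (0.139). Slit1, an axon guidance ligand, stood at 5.18 FPKM in dorsal pancreas, 10.7 FPKM in foregut and 2.91 FPKM in medial foregut. The Dcc and Avpr1b loci cover 0.0612% and 8.71% of the annotated spans. No locus among the 5 nearest to Sox3 or to Foxd3 was among the 5 of another of the 4 genes, whereas Sox10 and Olig2 shared some.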

How the data were processed

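The authors deposited 1 table of FPKM values with a column per library, per the file headers. Without roles or order, TopHat 1.33, Cufflinks 1.3.0 and build mm9 appear in the submitters' processing notes. How libraries were scaled to each other is not stated there. Columns were matched to tissues by the name each label repeats. Of 14053 loci, 1678 had no name and were left out, and 12375 were analysed. Depth in reads is unknown: among 353 loci at low values in both E8.5 libraries, the most common ratio to 3 digits was shared by 7. Summed FPKM ran from 437581 to 506529 per library.

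Levels, differences of log2(FPKM + 1), counts by the size rule and profile distances were computed with Python 3.11.15, NumPy 2.4.6 and pandas 2.3.3. The code for counts and distances was checked on simulated data. Changes were planted there only in loci of higher mean level than any of the 4 genes, so counts at their levels were not tested. Gene lists were matched by exact name or synonym. The genes and lists were chosen with earlier results of these data known. Named genes are the 4, their families and neighbours, and per list the 4 largest foregut minus medial foregut differences and 3 highest means, of which some are given.

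RefSeq and GENCODE M21 (GRCm38) gave names, strands, spans and sequences only. Pseudocounts, scalings, a looser rule and filters were varied. A locus among the nearest profiles is not reported here.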

Additional observations from a re-analysis of the deposited data

How the results depend on the processing

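For foregut minus medial foregut, all 4 genes stayed higher in foregut under every pseudocount and scaling tried. A pseudocount of 5 FPKM ended the counts of Sox10 (1.24) and Olig2 (1.37), because it shrinks differences of low genes, and left 0 loci higher in place of 5. Rescaling each library to a sum of 1000000 brought Foxd3 past the size rule (2.33), since it raises every value, and gave 15 loci higher. The looser rule counted Foxd3 too (1.78) and gave 82 higher and 47 lower, and a pseudocount of 0.1 FPKM gave 8 and 3. Sox10 ranked between 1 and 7 and Olig2 between 3 and 4 of 12375 over these settings, Sox3 between 48 and 364 and Foxd3 between 7 and 56. Median-ratio rescaling changed no count of the 40 differences of the 4 genes. Of the 5 nearest profiles, 1 (Sox10), 3 (Olig2), 3 (Sox3) and 2 (Foxd3) stayed when a maximum of 5 FPKM was required. No paired analysis was possible because each tissue has 1 library, and no library could be left out. Depth in reads is unknown, so levels under 1 FPKM carry no interval.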

Other observations

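Some genes of the neural crest and neuron lists stood highest at E10.5 and did not follow the 4 genes. They were chosen after their values were seen. Ngfr, a neurotrophin receptor of crest cells, stood at 3.37 FPKM in liver, 1.17 FPKM in ventral pancreas, 15.8 FPKM in dorsal pancreas, 2.94 FPKM in foregut and 0.847 FPKM in medial foregut. Nefl, a neurofilament gene, stood at 0.749 FPKM in liver, 1.79 FPKM in ventral pancreas, 32.8 FPKM in dorsal pancreas, 4.96 FPKM in foregut and 3.75 FPKM in medial foregut. Snai2, a factor of crest and mesenchyme, stood at 2.52 FPKM in liver, 3.26 FPKM in ventral pancreas, 13.5 FPKM in dorsal pancreas, 3.67 FPKM in foregut and 6.83 FPKM in medial foregut. In the same dorsal pancreas library Foxd3 was at 2.06 FPKM and Sox10 at 0.497 FPKM. Which cells carried these transcripts was not tested.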
